A study of Homo sapiens with 24 samples.

Results

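The nuclear receptor genes were followed through the deposited peak lists of 3 subunits of the SWI/SNF chromatin remodelling complex in human RWPE1 cells. A list of 43 receptor symbols was used, which is not the whole receptor superfamily, and all of them matched RefSeq genes among 20037 protein-coding genes. A peak was assigned to a receptor when the deposited annotation gave that gene as the nearest transcription start site (TSS), and such a peak is said here to name the gene. By this rule, receptors were named by 118 of 51504 BRG1 peaks (0.229%), 74 of 22157 BRM peaks (0.334%) and 28 of 6489 SNF5 peaks (0.431%).

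RWPE1 is an established line from benign human prostate epithelium, immortalised with genes of a papillomavirus. The cells were infected with a lentivirus that expresses SCHLAP1, a long noncoding RNA of prostate cancer, selected with blasticidin at 2.5 ug/mL and fixed for 30 min in 0.3% formaldehyde. BRG1 and BRM, either of which can be the ATPase of the complex, and SNF5, a subunit of its core, were each precipitated in 2 samples of MNase-digested chromatin, and 1 list was deposited for each. LACZ control cells have no profile of these subunits, so every value below describes SCHLAP1 cells and none measures an effect of SCHLAP1. Because the lists hold no read counts, depth is unknown for every peak. There is no spread between replicates, and a gene without a peak has not been shown to lack the protein. Intervals in brackets are exact (Clopper-Pearson) at 95% confidence. They cover counting error only and treat genes or peaks as trials, although neighbouring peaks of a gene are not independent.

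Nuclear receptors are transcription factors that mostly share a zinc finger domain for DNA and a domain for a small lipophilic ligand. RXR proteins are the common partner of the receptors for thyroid hormone, retinoic acid, vitamin D, fatty acids, oxysterols, bile acids and foreign compounds, the steroid receptors bind DNA mostly as homodimers, and the orphan receptors had no known ligand when they were found. Ligand-bound receptors recruit coactivators and SWI/SNF to their target sites, and glucocorticoid, retinoid and vitamin D receptors are known regulators of epithelial differentiation.

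Promoter sequences are shown for 4 receptors with promoter peaks in all 3 lists and the widest BRG1 peaks among these where RefSeq gave a sequence (RXRA, NR3C1, ESR1 and RXRB), and for their relatives RXRG and ESR2, which no peak named. NR1H2 was added after its values were seen, because its window lay under peaks of all 3 subunits. Each window holds the 250 bases before and the 50 bases after the RefSeq start, 5′ to 3′ on the strand of the gene, from RefSeq on GRCh38.p14. Capitals mark CpG dinucleotides.
RXRA (chr9:134326205-134326504, plus strand): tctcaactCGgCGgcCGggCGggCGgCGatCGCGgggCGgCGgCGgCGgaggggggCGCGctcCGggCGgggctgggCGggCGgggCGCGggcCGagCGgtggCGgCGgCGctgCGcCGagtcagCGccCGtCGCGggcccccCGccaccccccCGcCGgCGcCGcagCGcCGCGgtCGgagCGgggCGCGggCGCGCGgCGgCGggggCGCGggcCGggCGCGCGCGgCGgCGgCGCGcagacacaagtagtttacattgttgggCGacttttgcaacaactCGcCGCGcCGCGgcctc
NR3C1 (chr5:143404433-143404732, minus strand): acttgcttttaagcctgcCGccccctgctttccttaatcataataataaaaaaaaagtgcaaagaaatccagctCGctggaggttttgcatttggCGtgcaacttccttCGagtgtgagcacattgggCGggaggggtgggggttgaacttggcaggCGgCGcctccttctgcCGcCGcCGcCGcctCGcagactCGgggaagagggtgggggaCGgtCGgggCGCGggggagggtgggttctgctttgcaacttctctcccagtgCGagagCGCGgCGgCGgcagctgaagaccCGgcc
ESR1 (chr6:151656422-151656721, plus strand): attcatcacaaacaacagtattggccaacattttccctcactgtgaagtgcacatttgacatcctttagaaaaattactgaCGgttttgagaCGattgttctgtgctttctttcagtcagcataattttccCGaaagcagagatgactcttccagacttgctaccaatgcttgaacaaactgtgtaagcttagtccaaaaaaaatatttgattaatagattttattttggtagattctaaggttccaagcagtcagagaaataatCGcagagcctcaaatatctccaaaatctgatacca
RXRB (chr6:33200804-33201103, minus strand): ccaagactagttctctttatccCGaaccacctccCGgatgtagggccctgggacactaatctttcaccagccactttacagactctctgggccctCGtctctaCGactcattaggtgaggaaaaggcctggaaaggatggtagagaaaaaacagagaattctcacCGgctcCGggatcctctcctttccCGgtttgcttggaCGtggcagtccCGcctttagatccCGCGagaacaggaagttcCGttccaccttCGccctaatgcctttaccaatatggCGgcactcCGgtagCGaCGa
RXRG (chr1:165445077-165445376, minus strand): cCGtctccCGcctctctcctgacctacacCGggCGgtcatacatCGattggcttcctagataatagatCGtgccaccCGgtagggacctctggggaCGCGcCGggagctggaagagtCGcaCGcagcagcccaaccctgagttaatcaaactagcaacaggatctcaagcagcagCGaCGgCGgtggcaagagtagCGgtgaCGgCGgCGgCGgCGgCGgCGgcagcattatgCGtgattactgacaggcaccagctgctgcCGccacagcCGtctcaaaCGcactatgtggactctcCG
ESR2 (chr14:64338564-64338863, minus strand): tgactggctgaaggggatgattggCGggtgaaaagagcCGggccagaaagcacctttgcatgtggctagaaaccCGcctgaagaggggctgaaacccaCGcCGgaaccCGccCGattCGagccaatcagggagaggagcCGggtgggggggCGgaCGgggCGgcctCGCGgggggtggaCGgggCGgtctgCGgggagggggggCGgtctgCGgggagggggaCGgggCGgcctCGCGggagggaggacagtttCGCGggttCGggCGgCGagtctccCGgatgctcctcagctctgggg
NR1H2 (chr19:50376207-50376506, plus strand): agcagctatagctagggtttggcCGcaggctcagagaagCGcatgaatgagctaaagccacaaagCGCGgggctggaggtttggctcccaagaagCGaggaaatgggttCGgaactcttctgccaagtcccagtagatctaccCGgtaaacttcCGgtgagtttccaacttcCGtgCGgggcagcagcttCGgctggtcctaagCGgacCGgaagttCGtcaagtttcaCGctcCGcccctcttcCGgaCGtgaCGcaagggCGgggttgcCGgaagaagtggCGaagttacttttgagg
The RXRA window held 65 CpG, the most among the receptors, and the ESR1 window 4. The windows of NR3C1, RXRB, RXRG, ESR2 and NR1H2 held 23, 17, 28, 29 and 22 CpG in that order. The peaks over these windows, or their absence, are given with each gene below.

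A BRG1 peak named 33 of the 43 receptors (76.7%, 61.4 to 88.2%), beside 63.5% of all protein-coding genes. A BRM peak named 24 receptors (55.8%, 39.9 to 70.9%), beside 49.5% of all genes. SNF5 peaks named 12 receptors (27.9%, 15.3 to 43.7%), beside 19.6% of all genes. Each share of receptors was above that of all genes, and each interval contained the share of all genes. Counting promoter peaks alone, which the annotation sets within 1 kb of a TSS, BRG1 named 28 receptors (65.1%), BRM 22 (51.2%) and SNF5 11 (25.6%), beside 55.5%, 45.7% and 18.1% of all genes. Receptor genes were longer than genes in general, with a median span of 63458 bp against 24115 bp; the part of gene length in these shares was not tested.

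Sorted by the lists that named them, 10 receptors were in all 3 lists (23.3%, beside 17.9% of all genes): THRA, RARA, RARG, NR1H2, RXRA, RXRB, ESR1, ESRRA, NR3C1 and NR4A2. Another 14 were named by BRG1 and BRM and not by SNF5 (32.6%, beside 29.2%): THRB, PPARD, RORA, VDR, HNF4G, NR2C1, NR2E3, NR2F2, NR2F6, ESRRB, ESRRG, NR3C2, NR4A3 and NR5A2. Named by BRG1 alone were 8 (18.6%, beside 15.5%): PPARA, PPARG, NR1D2, RORB, HNF4A, NR2C2, NR2E1 and NR0B2. NR6A1 was named by BRG1 and SNF5, and NR1H3 by SNF5 alone. No peak named 9 receptors (20.9%, beside 33.6% of all genes): RARB, NR1H4, NR1I2, NR1I3, RXRG, NR2F1, ESR2, PGR and NR5A1. All of these intervals also contained the share of all genes.

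**Figure D1:**
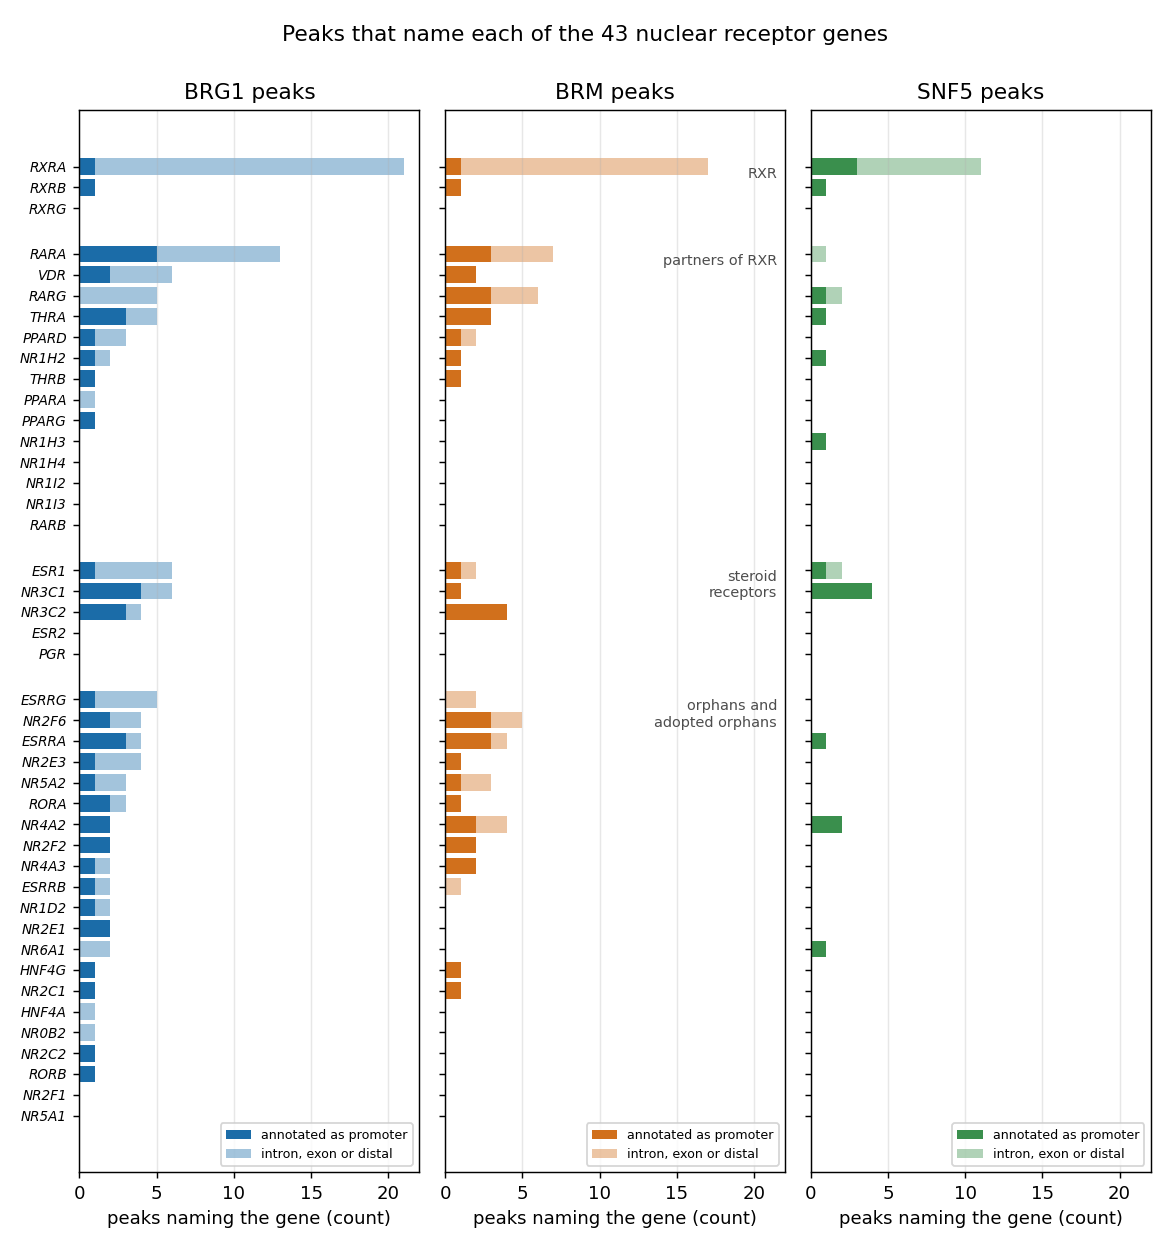
Number of BRG1, BRM and SNF5 peaks (x axis, count) that name each of the 43 receptor genes (y axis), grouped by role. Dark bars are peaks annotated as promoter and pale bars all others. RXRA stands out with 21 BRG1, 17 BRM and 11 SNF5 peaks, of which 1, 1 and 3 are annotated as promoter.

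Among the RXR genes, which encode the shared partner of many receptors, RXRA and RXRB were named in all 3 lists and RXRG in none. Of all protein-coding genes, 17.9% were named in all 3 lists and 33.6% in none. RXRA was named by 21 BRG1, 17 BRM and 11 SNF5 peaks, the most of any receptor in each list. It alone gave 11 of the 28 receptor peaks of SNF5. The widest BRG1 peak of RXRA (chr9:134354527-134359220, 4694 bp) lay in an intron and held BRM peaks of 2881 and 496 bp and SNF5 peaks of 151, 227 and 155 bp. A BRG1 peak of 2493 bp ended 103 bp before the promoter window printed above and met BRM over 2503 bp and 4 SNF5 peaks of 163 to 178 bp. On the other side of the window, a BRG1 peak of 3502 bp met a BRM peak of 3403 bp and no SNF5 peak. The window of 65 CpG thus lay in a gap between wide peaks, 103 bp from the nearest BRG1, 64 bp from the nearest BRM and 231 bp from the nearest SNF5 peak.

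Further peaks inside RXRA or within 1 kb of it carried the name of MIR4669, a microRNA gene within it, namely 16 for BRG1, 21 for BRM and 8 for SNF5. Counted by position, whatever their name, 37 BRG1, 37 BRM and 17 SNF5 peaks lay inside RXRA or within 1 kb of it. As many or more were found at 6 of 20037 genes for BRG1, RXRA included, at 3 for SNF5, and for BRM at 1, which was RXRA itself. Among the 2889 genes at least as long as RXRA (114131 bp), it held the most peaks per length in each of the 3 lists, at 32.4 BRG1, 32.4 BRM and 14.9 SNF5 peaks per 100 kb. RXRA was singled out for this count after its values were seen. RXRB, a gene of 7266 bp, had a single promoter peak in each list, with BRG1 over 1510 bp, BRM over 859 bp and SNF5 over 159 bp. The BRG1 and BRM peaks covered part or all of its printed window, and the SNF5 peak lay 180 bp away. RXRG had no peak inside it or within 1 kb. The BRG1 peak nearest to its printed window was 68679 bp away, although that window held 28 CpG and the letters AGGTCA, the core site of many receptors, on the reverse strand as TGACCT.

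**Figure D2:**
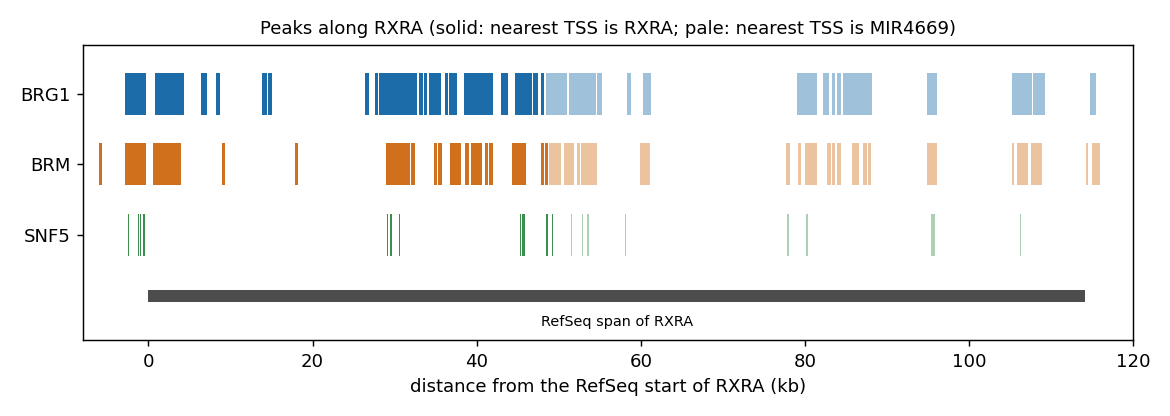
Peaks of BRG1, BRM and SNF5 (rows) along RXRA, by distance from its RefSeq start (x axis, kb), with the RefSeq span as a grey bar. Solid blocks name RXRA and pale blocks MIR4669. BRG1 and BRM peaks flank the start closely, whereas the SNF5 peaks near the start all lie before it. Peaks of all 3 subunits recur further along the gene, and the widest BRG1 peak named for RXRA measures 4694 bp.

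Of the 14 receptors that pair with RXR, 9 were named by BRG1, 7 by BRM and 5 by SNF5, through 37, 22 and 6 peaks. Beside these counts, BRG1 named 63.5%, BRM 49.5% and SNF5 19.6% of all protein-coding genes. RARA, a retinoic acid receptor, had the most BRG1 and BRM peaks after RXRA, 13 and 7, and 1 SNF5 peak. Its BRG1 peaks were 404 to 1699 bp wide, and the SNF5 peak of 216 bp lay in the widest, in an intron, together with a BRM peak of 1197 bp. RARG, the retinoic acid receptor of skin and other stratified epithelia, had 5 BRG1, 6 BRM and 2 SNF5 peaks. Its BRG1 peak of 5675 bp (chr12:53218724-53224398), annotated as intron, was the widest of all receptor peaks. In the whole list, 30 of the 51504 BRG1 peaks were at least as wide. That peak met 4 BRM peaks of 335 to 1819 bp and no SNF5 peak. The BRM peaks of 335 and 549 bp lay inside it and were annotated as promoter, the latter 36 bp from a TSS of RARG. The 2 SNF5 peaks of RARG, of 170 and 310 bp, lay in its BRG1 peak of 2746 bp at the start of the gene, each with a BRM peak. RARB, the third retinoic acid receptor, spans 768612 bp, the longest gene of the 43, and had no peak by name or position. The BRG1 peak nearest to its promoter window was 296843 bp away.

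THRA and THRB encode the thyroid hormone receptors. THRA was named by 5 BRG1 peaks of 471 to 1019 bp, by 3 BRM peaks of 328 to 804 bp and by 1 SNF5 peak of 151 bp, and THRB by 1 BRG1 peak of 446 bp and 1 BRM peak of 854 bp. VDR, the vitamin D receptor, had 6 BRG1 peaks, the widest a promoter peak of 2390 bp, and 2 BRM peaks of 486 and 461 bp. The liver X receptors, which sense oxysterols, differed in the names of their peaks more than in position. NR1H2 had a BRG1 peak of 683 bp, a BRM peak of 657 bp and a SNF5 peak of 367 bp that all overlapped its printed window, and a further BRG1 peak of 395 bp outside the gene. NR1H3 was named by a SNF5 peak of 221 bp alone (chr11:47248873-47249093). That peak lay on a BRG1 peak of 627 bp and a BRM peak of 771 bp, whose nearest TSS was that of the neighbouring gene ACP2.

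The fatty acid receptors had no SNF5 peak by name. PPARD had 3 BRG1 peaks, of 1983 bp at the promoter and of 870 and 2331 bp in introns, and BRM peaks of 900 and 1070 bp. PPARG, the receptor of fat cell differentiation, had a BRG1 promoter peak of 470 bp. PPARA, which controls fatty acid oxidation, had a distal BRG1 peak of 331 bp, the narrowest width in that list, 2344 bp from its TSS. NR1H4 (the bile acid receptor), NR1I2 and NR1I3 (receptors for foreign compounds in liver) had no peak by name or position, and the nearest BRG1 peaks lay 69655, 78492 and 10298 bp from their windows.

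Of the 5 steroid receptors, NR3C1, NR3C2 and ESR1 were named by BRG1 and BRM, NR3C1 and ESR1 also by SNF5, and ESR2 and PGR by none. BRG1, BRM and SNF5 named 63.5%, 49.5% and 19.6% of all protein-coding genes, and 5 genes are too few to tell a difference from these shares. NR3C1, the glucocorticoid receptor, was named by 6 BRG1, 1 BRM and 4 SNF5 peaks. Its BRM peak of 3835 bp (chr5:143402151-143405985) was the widest BRM peak of any receptor, and 24 of 22157 BRM peaks were at least as wide. It overlapped neighbouring BRG1 peaks of 2096 and 2104 bp and spanned all 4 SNF5 peaks, of 263, 477, 202 and 192 bp, and the printed NR3C1 window lay under all 3 subunits. Another 9 BRG1 peaks of 375 to 1045 bp lay inside NR3C1 under the names of RPL7P21 and AC091925.2. NR3C2, the mineralocorticoid receptor, had 4 BRG1 peaks of 362 to 1696 bp and 4 BRM promoter peaks of 320 to 488 bp.

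ESR1, the oestrogen receptor alpha, was named by 6 BRG1, 2 BRM and 2 SNF5 peaks. A BRG1 promoter peak of 2056 bp (chr6:151807426-151809481) met a BRM peak of 1174 bp and a SNF5 peak of 168 bp. An intronic BRG1 peak of 1304 bp met a BRM peak of 583 bp and a SNF5 peak of 151 bp. The RefSeq start used for the printed ESR1 window is an upstream one, and the nearest BRM peak, that of 1174 bp, was 150956 bp from it. The window of 4 CpG is therefore not the sequence under the promoter peaks of ESR1. ESR2, the oestrogen receptor beta, was named in no list, yet its window of 29 CpG lay under a BRG1 peak of 1770 bp and a BRM peak of 1539 bp that were named for AL161756.1. PGR, the progesterone receptor and a classic target of ESR1, had no peak by name or position, and the nearest BRG1 peak was 352093 bp from its window.

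Of the 21 orphan and adopted orphan receptors, BRG1 named 19, BRM 12 and SNF5 3, through 43, 27 and 4 peaks. The shares of all protein-coding genes were 63.5%, 49.5% and 19.6%, and the difference from them was not tested. By name, the widest BRG1 peaks of this group were at the NR4A genes, immediate early genes that are induced by many stimuli. NR4A3 had a BRG1 promoter peak of 5032 bp (chr9:99818938-99823969), and 49 BRG1 peaks were at least as wide. It held 3 BRM peaks, of 1093 and 1194 bp named for NR4A3 and of 1341 bp named for AL359710.1, and a SNF5 peak of 264 bp named for AL359710.1. NR4A2 had BRG1 promoter peaks of 3757 and 1846 bp, 4 BRM peaks of 409 to 1475 bp and SNF5 peaks of 206 and 179 bp. Both SNF5 peaks of NR4A2 lay in the BRG1 peak of 1846 bp, outside the RefSeq span of the gene, and none in that of 3757 bp.

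**Figure D3:**
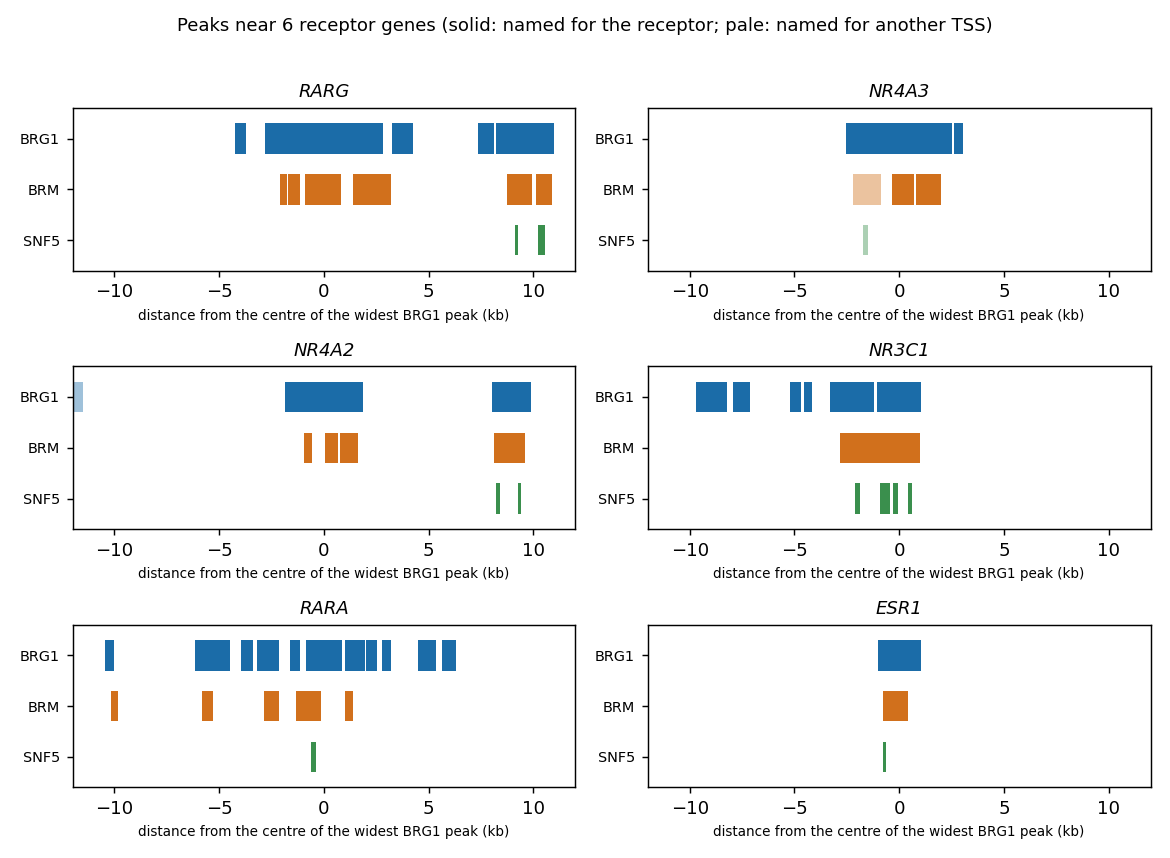
BRG1, BRM and SNF5 peaks (rows) within 12 kb of the centre of the widest BRG1 peak (x axis, kb) of 6 receptor genes. Solid blocks name the receptor and pale blocks another TSS. The BRM peak of NR3C1 (3835 bp) overlaps a pair of BRG1 peaks and spans 4 SNF5 peaks, whereas the widest BRG1 peak of RARG (5675 bp) meets 4 BRM peaks and no SNF5 peak.

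ESRRA, an oestrogen-related receptor of mitochondrial genes, was named by 4 BRG1, 4 BRM and 1 SNF5 peaks, with its SNF5 peak of 263 bp in BRG1 and BRM peaks of 1200 and 669 bp. Its relatives ESRRB and ESRRG, both much longer genes, had 2 and 5 BRG1 peaks and 1 and 2 BRM peaks. NR2F6 and NR2F2, receptors of the COUP family of repressors, had 4 and 2 BRG1 peaks, the widest of 2034 and 2179 bp, with 5 and 2 BRM peaks. NR2F1 of the same family was named in no list, and the antisense gene NR2F1-AS1 took a BRG1 peak of 440 bp and a SNF5 peak of 322 bp inside it. Wider peaks also named for NR2F1-AS1 lay just beyond 1 kb from the NR2F1 window. They measured 1876 bp (BRG1), 924 bp (BRM) and 355 bp (SNF5), at 1158, 1020 and 1402 bp from it. NR6A1, the germ cell nuclear factor, was named by intronic BRG1 peaks of 494 and 611 bp and by a SNF5 promoter peak of 295 bp. That SNF5 peak lay on a BRG1 peak of 3815 bp and a BRM peak of 2559 bp named for AL354928.1, and by position NR6A1 held 17 BRG1, 2 BRM and 5 SNF5 peaks. NR5A1, the steroidogenic factor of adrenal and gonad, had a BRG1 peak of 473 bp inside it named for ADGRD2 and no other peak.

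HNF4A and HNF4G, receptors of liver and gut epithelium, were named by an intronic BRG1 peak of 696 bp and by promoter peaks of 913 bp (BRG1) and 550 bp (BRM). NR0B2, which lacks a DNA-binding domain and represses other receptors, was named by a BRG1 peak of 638 bp that lay 6266 bp from its TSS and outside the gene. NR2E3, a photoreceptor factor, was named by 4 BRG1 peaks and 1 BRM peak, all outside its RefSeq span. Named by BRG1 alone, the clock repressor NR1D2 had peaks of 542 and 467 bp, the neural stem cell factor NR2E1 of 511 and 422 bp, RORB, a factor of retina and brain, of 473 bp and NR2C2, a testicular orphan receptor, of 336 bp. The others were named by BRG1 and BRM. RORA, an activator of clock genes, had 3 BRG1 peaks and 1 BRM peak, NR2C1, the relative of NR2C2, 1 of each, and NR5A2, the liver receptor homolog, 3 of each. Their widest BRG1 peaks measured 1515 bp at RORA, 1129 bp at NR2C1 and 1464 bp at NR5A2.

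By name, the members of 14 of 15 paralog groups, which hold 35 of the receptors, were not all in the same lists. Genes in general are spread over several patterns, as the shares above show, and no such count was made for other gene families. By position 9 groups differed, and RORA and RORB, NR1H2 and NR1H3, HNF4A and HNF4G, NR2C1 and NR2C2, NR4A2 and NR4A3, and NR1I2 and NR1I3 had peaks in the same lists. NR1I2 and NR1I3 had none by either count. In 6 groups at least 1 member was named in no list: RARB, NR2F1, RXRG, ESR2 and NR5A1 stand beside relatives with peaks. Since 1 list was deposited for each subunit, none of these differences between genes has a replicate error.

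The 5 receptors on the short arm of chromosome 3 (THRB, RARB, PPARG, NR1D2 and NR2C2) had no SNF5 peak by name or position, and THRB alone was named by BRM, with a BRM peak under another name in NR2C2. BRG1 named all of these genes but RARB, through 1 or 2 peaks each, so naming by BRG1 was not low among them. The whole stretch below 90 Mb of that chromosome held 402 BRG1, 99 BRM and 2 SNF5 peaks, against 1823, 639 and 193 above it. Of the 501 protein-coding genes below 90 Mb, BRG1 named 45.5%, BRM 15.2% and SNF5 0.399%, against 71.3%, 57.3% and 23.5% of the 565 genes above. Among the 38 receptors elsewhere, BRG1 named 76.3%, BRM 60.5% and SNF5 31.6%. Few peaks at these 5 genes and few peaks in the region around them cannot be told apart.

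Introns held a larger share of the receptor peaks than of all peaks in each list, and by less without RXRA. Promoter peaks made up 39.8% of the receptor BRG1 peaks (30.9 to 49.3%), beside 37.3% of all BRG1 peaks, and introns 52.5% (43.1 to 61.8%) beside 37.7%. For BRM the promoter share was 52.7% (40.7 to 64.4%) beside 62.8%, and the intron share 44.6% beside 19.6%. For SNF5 the promoter share was 60.7% (40.6 to 78.5%) beside 81.3%, and the intron share 39.3% beside 7.98%. Distal peaks were 4.24% of receptor BRG1 peaks and 1.35% of receptor BRM peaks, beside 21.9% and 14.3% of all, while none of the 28 SNF5 peaks was distal, which allows up to 12.3% and so includes the 8.43% of all SNF5 peaks.

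The low promoter shares of BRM and SNF5 rested on RXRA. Without it the promoter shares were 47.4% for BRG1, 66.7% for BRM and 82.4% for SNF5 (56.6 to 96.2%, 17 peaks). The intron shares without it were 43.3%, 29.8% and 17.6%, each still above that of all peaks. Each interval of these promoter and intron shares without RXRA contained the share of all peaks. Wide peaks over a TSS may be annotated as intron or exon, as at the start of RARG, where the 2746 bp peak was typed as exon. The 5675 bp BRG1 peak of RARG, typed as intron, likewise held BRM peaks typed as promoter.

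Receptor BRG1 peaks met a BRM peak, by an overlap of at least 1 bp, in 54 of 118 cases (45.8%, 36.6 to 55.2%), beside 35.7% of all BRG1 peaks. They met a SNF5 peak in 16 cases (13.6%, 7.95 to 21.1%), beside 9.58% of all. The interval of the share that met BRM lay above the background, and without RXRA the share was 46.4% (36.2 to 56.8%). Read from BRM, 69 of 74 receptor peaks met BRG1 (93.2%, beside 92.2% of all) and 15 met SNF5 (20.3%, beside 21.9%). All 28 SNF5 peaks of receptors met both a BRG1 and a BRM peak (87.7 to 100%), beside 96.1% and 91.9% of all SNF5 peaks. No receptor BRG1 peak met SNF5 without BRM, beside 0.359% of all BRG1 peaks, so 0 of 118 is near the background.

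Receptor BRG1 peaks with company were wider. The 16 that met BRM and SNF5 had a median width of 2031 bp (95% interval of the median, 1304 to 2493), the 38 that met BRM alone 1186.5 bp (947 to 1549) and the 64 that met neither 512 bp (463 to 554). The same order held over all BRG1 peaks, with medians of 1606, 1038 and 510 bp. The part of width itself in the chance to overlap was not tested. The promoter share went with it, at 68.8%, 47.4% and 28.1% of receptor peaks, beside 83.6%, 57.8% and 22.1% of all. Over all receptor peaks BRG1 had a median width of 723.5 bp (554 to 937) beside 667 bp over its whole list. BRM had 562.5 bp (461 to 757) beside 547 bp, and SNF5 180.5 bp (170 to 221) beside 212 bp. Each of these intervals contained the median of all peaks of its list.

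**Figure D4:**
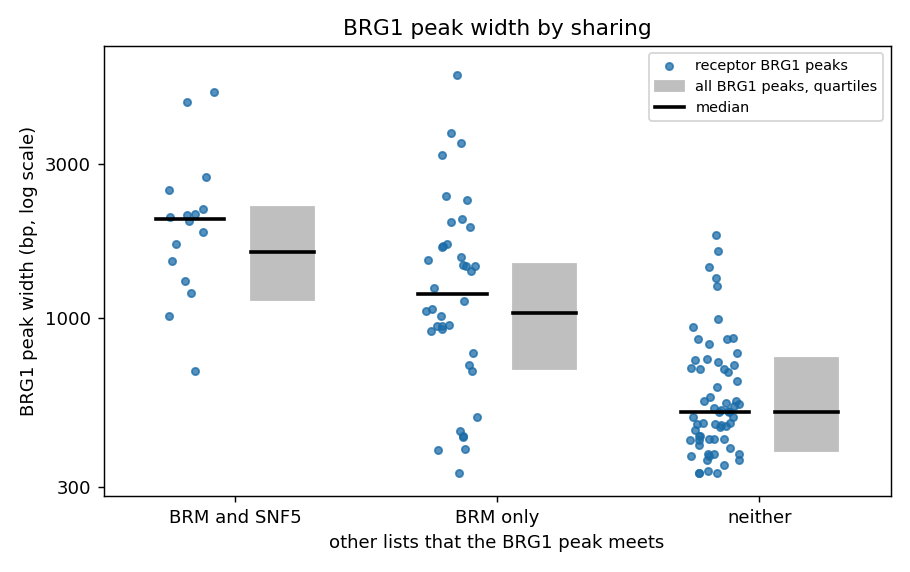
Width of the 118 receptor BRG1 peaks (points, bp, log scale) by the other lists they meet, beside the quartiles of all BRG1 peaks (grey boxes); black lines are medians. Receptor medians are 2031 bp with BRM and SNF5, 1186.5 bp with BRM only and 512 bp with neither, against 1606, 1038 and 510 bp for all BRG1 peaks.

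The naming rule moved peaks between neighbours. Of the peaks that named a receptor, 17 BRG1, 12 BRM and 6 SNF5 peaks lay outside the RefSeq span of that gene. Of the 190 BRG1, 115 BRM and 41 SNF5 peaks inside a receptor or within 1 kb, 85, 48 and 17 carried another name, often of an antisense or microRNA gene. By position, 34 receptors had a BRG1 peak (79.1%, beside 70.1% of all genes), 28 a BRM peak (65.1%, beside 57.0%) and 14 a SNF5 peak (32.6%, beside 24.2%). NR1H3, NR2F1, ESR2 and NR5A1 had BRG1 peaks under other names alone, and NR2F1, NR2F2 and NR2F6 SNF5 peaks. The same held for BRM at 6 receptors, NR1H3, ESR2, NR6A1, RORB, HNF4A and NR2C2, of which the last 3 were named by BRG1 alone and held BRM peaks of 442, 532 and 565 bp. RARB, NR1H4, NR1I2, NR1I3, RXRG and PGR had none in any list by either count.

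RefSeq windows like those printed were at hand for 38 receptors, all but VDR, NR2F6, NR4A2, HNF4G and NR0B2, and for 15843 protein-coding genes in all. A BRG1 peak covered at least 1 base of 14 receptor windows (36.8%), beside 56.1% of all windows. BRM covered 11 (28.9%) and SNF5 3 (7.89%), beside 45.0% and 14.1%. The windows under SNF5 were those of NR3C1, NR6A1 and NR1H2. These shares lie below those of all genes, while the shares by name lie above. Several receptors start transcription at more than 1 place, and ESR1, RARA and RORA had promoter peaks at another TSS than the one in the window.

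The 14 covered windows held a median of 23 CpG (range 14 to 39), against 11.5 (0 to 65) in the 24 windows not covered by BRG1. Over all genes the medians were 27 in covered windows and 8 in the others. Of the 10 receptor windows with fewer than 10 CpG, BRG1 covered 0, beside 11.9% of such windows of all genes. With so few windows, 0 of 10 is near the background. Coverage was not highest where CpG was densest. The windows of RXRA, PPARA, NR2C2 and THRA held 65, 52, 48 and 46 CpG and none lay under a peak. Over all genes, BRG1 covered 80.3% of windows with 20 to 29 CpG, 70.8% with 40 to 49 and 38.1% with 50 or more. At THRA the nearest BRG1 and BRM peaks began 130 and 106 bp from the window, and at NR2C2 420 and 191 bp. The windows of RXRA, THRA and NR2C2 thus lay beside peaks, and that of PPARA 1936 bp from a BRG1 peak.

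**Figure D5:**
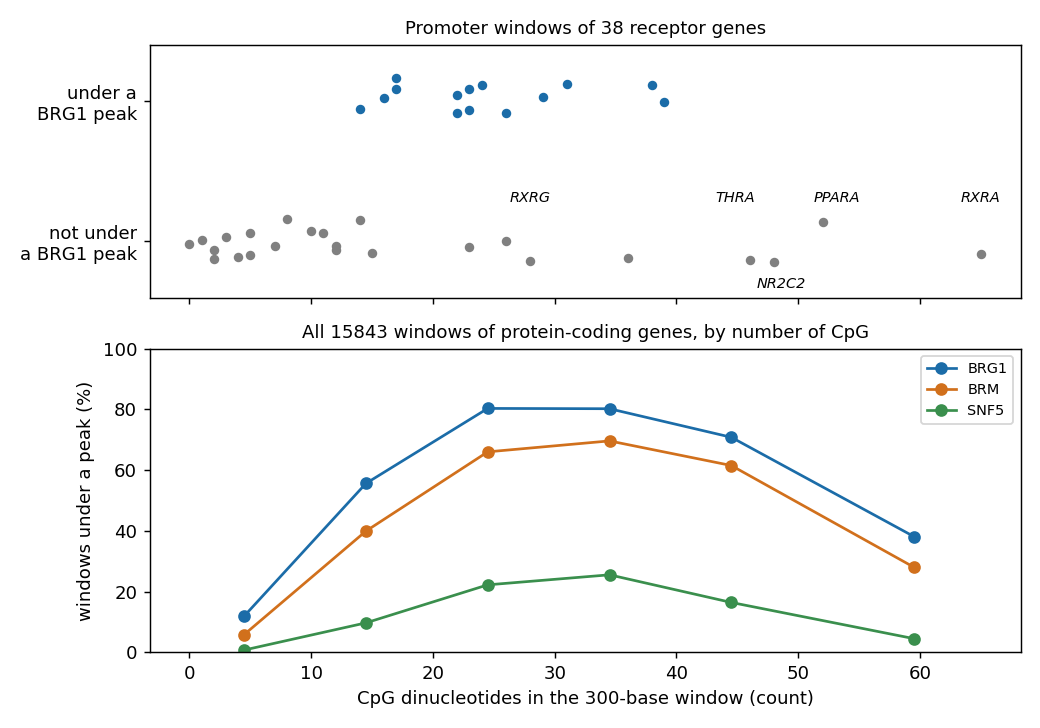
Top: number of CpG (x axis, count) in the promoter windows of 38 receptor genes, each a point, under or not under a BRG1 peak; vertical scatter has no meaning. Bottom: share of all 15843 windows under a BRG1, BRM or SNF5 peak (y axis, %) by CpG class. Covered receptor windows span 14 to 39 CpG, and the windows with 46 to 65 CpG are not covered.

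Short letter patterns were searched on both strands of the windows. AGGTCA, the core site of many RXR partners and orphan receptors, stood in 6 of 38 receptor windows (15.8%), beside 11.7% of all windows. AGAACA, the core of the steroid receptor element, stood in 5 (13.2%), beside 11.2%, and the AP-1 letters TGANTCA in 3 (7.89%), beside 5.75%. The E-box CACGTG stood in 10.5%, GGGCGG of SP factors in 55.3% and CCAAT in 39.5%, beside 8.88%, 58.5% and 36.4%. None of these letter sets contains another, and GGGCGG and CACGTG themselves contain CpG. With 38 windows these shares are near those of all genes, and a match is not a bound site.

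Other genes of receptor signalling were described in the same way. Of 24 coregulator genes, BRG1 named 21 (87.5%, 67.6 to 97.3%), BRM 20 (83.3%, 62.6 to 95.3%) and SNF5 7 (29.2%), beside the 63.5%, 49.5% and 19.6% of all genes. The coactivator NCOA3 had 15 BRG1, 1 BRM and 1 SNF5 peaks, TBL1XR1 of the corepressor complex 14, 2 and 0, and the coactivator NCOA2 11, 3 and 0. HDAC3, PPARGC1A and TBL1X were named in no list. Of 24 genes that make, carry or break down ligands, BRG1 named 20 (83.3%), BRM 13 (54.2%) and SNF5 2 (8.33%). ALDH1A2, an enzyme of retinoic acid synthesis, had 16 BRG1 and 4 BRM peaks. CYP24A1, which breaks down vitamin D hormone, had 12 BRG1, 4 BRM and 1 SNF5 peaks, the widest of 3993 bp, and CYP26B1, which breaks down retinoic acid, 5 BRG1 and 2 BRM peaks. CRABP1, DIO2 and DIO3 were named in no list.

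Of 26 known receptor target genes, BRG1 named 21 (80.8%, 60.6 to 93.4%) and BRM 17 (65.4%, 44.3 to 82.8%). These intervals contained the 63.5% and 49.5% of all genes. SNF5 named 11 of the targets (42.3%, 23.4 to 63.1%). The target list includes NR0B2, which is also among the 43 receptors. TGM2, a target of retinoic acid receptors, had 12 BRG1, 7 BRM and 1 SNF5 peaks. SREBF1, a target of the liver X receptors, had 11, 7 and 3, and ZBTB16, a target of the glucocorticoid receptor, 8, 4 and 0. KLF9, another glucocorticoid target, had 5 BRG1, 3 BRM and 5 SNF5 peaks, the widest BRG1 and BRM peaks measuring 3696 and 3784 bp. CAMP, CYP3A4, CYP7A1 and TFF1 were among those named in no list. The SNF5 interval of the targets lay above the 19.6% of all genes, but the list was set with earlier results of these data known. With promoter peaks alone SNF5 named 8 targets (30.8%, 14.3 to 51.8%), an interval that contained the 18.1% of all genes. Receptor genes themselves stood at 27.9%, within the interval of the targets.

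Marker genes of 4 cell types were counted too. BRG1, BRM and SNF5 named 6, 6 and 3 of 6 basal epithelial markers and 5, 4 and 2 of 6 luminal prostate markers. They named 3, 1 and 0 of 6 hepatocyte markers and 5, 2 and 0 of 6 blood markers. The shares of all protein-coding genes were 63.5%, 49.5% and 19.6%. With 6 genes in each set, only the BRM interval of the basal markers (54.1 to 100%) left out the share of all genes. Sets of this size cannot check the label of the cells. A peak is not a measure of expression, and markers of other cell types were named by BRG1 too. Whether the receptors described here are expressed in these cells was not measured.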

How the data were processed

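Chromatin immunoprecipitation with sequencing of BRG1, BRM and SNF5 was done in 6 of the 24 samples, 2 for each subunit, after quenching with 125 mM glycine, per the labels' protocols. The submitters' processing notes name Bowtie2, SAMtools, MACS2, deepTools 2.5.2 and hg38. The sources used here do not say how replicates entered peak calling, at which threshold, or what was filtered. The deposited lists give start, end, width and distance to the nearest TSS in bp, with a type for each peak, per the file headers, and hold no score or read count. The largest distance of a promoter peak was 998 bp and the smallest of any other type 999 bp. The narrowest peaks measured 331 bp (BRG1), 310 bp (BRM) and 151 bp (SNF5), and 90, 74 and 49 peak numbers are absent from the lists.

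From these, peaks were counted by the name of the nearest TSS and by position against RefSeq gene spans of GRCh38.p14, and overlaps of at least 1 bp were taken between lists. No test was made, because each subunit has 1 list. Shares have exact binomial intervals and medians have order-statistic intervals, both at 95% confidence. The routines were tested on simulated data. Scripts ran in Python 3.11.15 with pandas 2.3.3, numpy 2.4.6, matplotlib 3.10.9 for figures and scipy 1.17.1 for intervals.

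The members, gene lists and rules were chosen with earlier results of these data known. Given in full were receptors in all 3 lists, the 5 with the most BRG1 peaks, the 10 with the widest, those with BRM or SNF5 peaks and none of BRG1, those whose BRG1 peaks were not at promoters and those with no peak. For each other list, up to 4 genes with the most BRG1 peaks and up to 3 with no peak, by alphabet, were named. KLF9 and TFF1 were added after their values were seen, and some genes that the rule takes are not reported here. Sequence came from the RefSeq promoter windows alone, some of which lie under peaks. No genome sequence or protein table was used here, so peaks were not read in full and no identity between proteins is given. Samples of histone modifications and input chromatin were not analysed here.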

Additional observations from a re-analysis of the deposited data

How the results depend on the processing

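Of 48 alternatives to 21 results, 35 left the value within the limit set for it (1.5 times for a count, the counting interval for a share or a median) and 13 moved it. Limited to the 6489 widest peaks of each list, BRG1 named 15 receptors (34.9%) and BRM 13 (30.2%), beside 20.5% and 22.6% of all genes. With promoter peaks alone, SNF5 named 1 gene of ligand handling. With promoters set at 500 bp from the TSS, the promoter share of receptor peaks was 28.8% for BRG1 and 40.5% for BRM. Set at 3000 bp it was 63.6% for BRG1, 70.3% for BRM and 78.6% for SNF5. Without RXRA, chosen after seeing the data, it was 66.7% for BRM and 82.4% for SNF5. A gap of at most 1000 bp raised the share of receptor BRG1 peaks that met BRM to 62.7%, and a reciprocal overlap of 50% lowered the shares that met BRM and SNF5 to 22.9% and 0.847%. Apart from those without RXRA, these changes follow from how each alternative is built, since it counts fewer peaks or uses a looser or stricter limit. Leaving out the 5 receptors on the short arm of chromosome 3, also chosen after seeing the data, left 29, 23 and 12 named receptors. No paired analysis was possible because each subunit has 1 list with no value for a replicate, and for the same reason no replicate could be left out. Depth sets how many peaks are called, and it is unknown here, so counts and widths were not compared between subunits as amounts of protein.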

Other observations

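Of the 74 receptor BRM peaks, 5 met no BRG1 peak (6.76%), beside 7.82% of all BRM peaks, a share near the background. They were 3 at RXRA (320, 310 and 315 bp), 1 at THRA (328 bp) and 1 at NR2E3 (327 bp), close to the narrowest width of 310 bp in the BRM list. Genes of the same hormone differed in their lists. For retinoic acid, the receptors RARA and RARG, the partner RXRA and the synthesis enzyme ALDH1A3 were named by all 3 subunits, while the enzymes ALDH1A1 and CYP26A1 were named by BRG1 alone, through 4 and 2 peaks. For vitamin D, VDR had no SNF5 peak by name or position and CYP24A1 had 1. These genes were picked after their values were seen.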
